A study of Homo sapiens with 18 samples.

Results

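The genes described here are 10 members of cytosolic DNA sensing and nucleic acid clearance, namely CGAS, IFI16, STING1, TBK1, IKBKE, ENPP1, SAMHD1, RNASEH2A, RNASEH2B and RNASEH2C. They were taken by symbol from the 35044 rows of the gene count table, and all 10 were found. RNA-seq was carried out on libraries labelled HCC1937, a breast cancer cell line that carries a BRCA1 mutation, with either an empty vector (HCC1937-EV, genotype label WT) or overexpressed wild-type BRCA1 (HCC1937-OE-BRCA1). Each line was sampled untreated (0 h) and after 12 h or 24 h of the PARP inhibitor (PARPi) olaparib, with 3 libraries in each of the 6 conditions, so that 18 libraries were compared. The characteristics of every library name olaparib, the 0 h libraries included, and the dose is not in the labels. The sources used here do not say whether either line was 1 clone, or whether the 3 libraries of a condition came from separate cultures, so the p-values measure the spread between libraries, which may be technical.

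Total counts ran from 15081973 to 17571922 per library, with a median of 16077299. Levels are given as CPM, the count of a gene per 1000000 counts of its library after scaling by TMM (the trimmed mean of M values), unless a level per length is named. The libraries labelled HCC1937-EV and HCC1937-OE-BRCA1 differed in genes that mark the cell itself. The epithelial adhesion gene EPCAM had a mean of 0.0205 CPM in untreated EV libraries and 310 CPM in untreated OE libraries, and the intermediate filament gene VIM had 306 CPM and 1.05 CPM. The summed level of 5 basal breast markers was 145 to 205 CPM in EV and 2738 to 4419 CPM in OE libraries, with 2 of the 5 and 5 of the 5 at a mean of 1 CPM or more. The other marker lists also differed, with 388 to 456 CPM against 9.72 to 15.7 CPM for 6 mesenchymal markers, 2418 to 3161 CPM against 3974 to 6513 CPM for 5 epithelial markers and 2.78 to 6.82 CPM against 53.5 to 74.5 CPM for 2 luminal markers. Leukocyte markers (4 genes) summed to 1.15 to 2.59 CPM in EV and 33.7 to 86.7 CPM in OE, mostly from CD14, with PTPRC without a count in untreated EV libraries and at a mean of 1.09 CPM in untreated OE libraries. The 2 endothelial markers summed to 0.924 to 2.83 CPM and 10.3 to 21.1 CPM. An effect of BRCA1 and a difference in the identity of the cells therefore cannot be told apart in any comparison of EV with OE, and in these bulk samples fewer cells with a transcript and less of it per cell cannot be told apart either. BRCA1 itself was at 126, 110 and 116 CPM in untreated EV and at 166, 122 and 127 CPM in untreated OE libraries, a log2 difference of 0.24 ± 0.11 (SE) with adjusted p = 0.0654. At 24 h it was at 94.4 ± 4.46 CPM (SD, n = 3) in EV and 161 ± 7.07 CPM in OE, a log2 difference of 0.77 with adjusted p = 3.17e-06.

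DNA in the cytosol is bound by cyclic GMP-AMP synthase (CGAS), which makes the second messenger cGAMP. cGAMP binds STING1 on the endoplasmic reticulum, and STING1 recruits the kinases TBK1 and IKBKE (IKK epsilon), which phosphorylate the transcription factor IRF3 so that type I interferon and interferon-stimulated genes are switched on. IFI16 is a further DNA sensor of the PYHIN family and is itself induced by interferon. Other members keep the signal low: ENPP1 hydrolyses cGAMP outside the cell, SAMHD1 degrades deoxynucleotides and acts at stalled replication forks, and RNase H2, built from the catalytic subunit RNASEH2A with RNASEH2B and RNASEH2C, removes ribonucleotides from DNA and cuts RNA in RNA-DNA hybrids. Inherited loss of SAMHD1 or of any RNase H2 subunit causes Aicardi-Goutieres syndrome, an interferonopathy, and PARP inhibitors are known to raise cytosolic DNA in BRCA1-deficient tumour cells. On GRCh38, by GENCODE 29, the sensors lie at chr6:73413515-73452276 (CGAS, minus strand) and chr1:158999968-159055155 (IFI16, plus strand), STING1 (named TMEM173 there) at chr5:139475534-139482935 (minus) and SAMHD1 at chr20:36889773-36951901 (minus), and counts cover their exons.

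The promoter windows of IFI16 and SAMHD1 are shown because these were the members that olaparib raised at both times in OE cells. They come from RefSeq on GRCh38.p14 and hold 250 bases before and 50 bases after an annotated start, and 8 of the 10 members had an entry, with 10 windows in all (CGAS and STING1 had none). Capitals mark AANNGAAA, the core that interferon regulatory factors bind, on either strand and with overlapping matches joined, a motif chosen after the sequences had been read. IFI16 has 2 annotated starts, and its windows are chr1:159008741-159009040 and chr1:159009657-159009956 on the plus strand. The SAMHD1 window is chr20:36951659-36951958 on the minus strand.
IFI16, first start: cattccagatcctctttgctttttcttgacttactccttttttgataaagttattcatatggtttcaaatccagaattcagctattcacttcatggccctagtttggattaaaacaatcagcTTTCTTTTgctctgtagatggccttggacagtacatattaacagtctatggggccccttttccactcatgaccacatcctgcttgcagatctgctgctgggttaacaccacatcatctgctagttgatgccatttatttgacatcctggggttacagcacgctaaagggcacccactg
IFI16, second start: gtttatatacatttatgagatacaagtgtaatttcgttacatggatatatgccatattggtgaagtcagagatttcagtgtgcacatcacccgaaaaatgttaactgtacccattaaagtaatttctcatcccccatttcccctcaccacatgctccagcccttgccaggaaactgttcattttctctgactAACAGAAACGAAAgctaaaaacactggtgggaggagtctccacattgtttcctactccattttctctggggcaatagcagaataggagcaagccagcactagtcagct
SAMHD1: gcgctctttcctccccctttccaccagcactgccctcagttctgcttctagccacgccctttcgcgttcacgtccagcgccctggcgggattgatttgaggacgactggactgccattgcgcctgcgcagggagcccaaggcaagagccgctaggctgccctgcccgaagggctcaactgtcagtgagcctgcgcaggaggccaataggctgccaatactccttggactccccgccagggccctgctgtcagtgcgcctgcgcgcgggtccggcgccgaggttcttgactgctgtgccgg
The core was found once in the first IFI16 window, beginning 128 bases before the start, and at 2 overlapping places in the second, beginning 58 and 53 bases before it. IKBKE held it once, and no match lay in the SAMHD1 window or in those of the other members. Of all 35116 RefSeq windows of this length, 22.8% held it. The full interferon-stimulated response element, searched as GAAA and GAAA with NN between them on both strands, lay in no member window and in 3.57% of all windows. The gamma-activated site TTCNNNGAA was likewise in no member window and in 7.66% of all, and the E2F site TTTNNCGC was in the RNASEH2A window alone and in 6.89% of all. These are matches of letters and say nothing of binding.

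Levels per length were compared first to see which members the cells express, as TPM, the count divided by the exonic length of the gene (the union of its exons) and scaled to a sum of 1000000 per library. In untreated EV cells TBK1 was highest at 37.2 ± 4.62 TPM and RNASEH2C came next at 35.5 ± 3.92 TPM (SD, n = 3), which did not differ beyond their spread. CGAS (20.2 ± 1.07 TPM) and IFI16 (18.2 ± 0.789 TPM) followed, then IKBKE and STING1 at 12.5 TPM each, SAMHD1 at 8.004 ± 0.967 TPM, RNASEH2B at 3.04 TPM, RNASEH2A at 1.501 TPM and ENPP1 at 0.0410 TPM. In untreated OE cells the order opened with CGAS (65.1 ± 11.7 TPM), SAMHD1 (58.4 ± 4.72 TPM), IFI16 (56.7 ± 17.3 TPM) and RNASEH2C (52.8 ± 8.81 TPM), and neighbours among these 4 did not differ beyond their spread. TBK1 had rank 5 there at 25.6 ± 7.29 TPM. At 24 h in OE cells IFI16 led at 131 ± 3.13 TPM, ahead of SAMHD1 at 114 ± 5.74 TPM and CGAS at 69.0 ± 2.54 TPM. The place of SAMHD1 depends on the length used. With the longest transcript in place of the exon union SAMHD1 was first in untreated OE cells at 90.0 TPM, and first in OE cells at 24 h at 177 ± 9.66 TPM, ahead of IFI16 at 128 ± 3.57 TPM. The level of RNASEH2B in untreated OE cells went from 2.11 to 5.73 TPM with that length, and its place did not change.

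**Figure D1:**
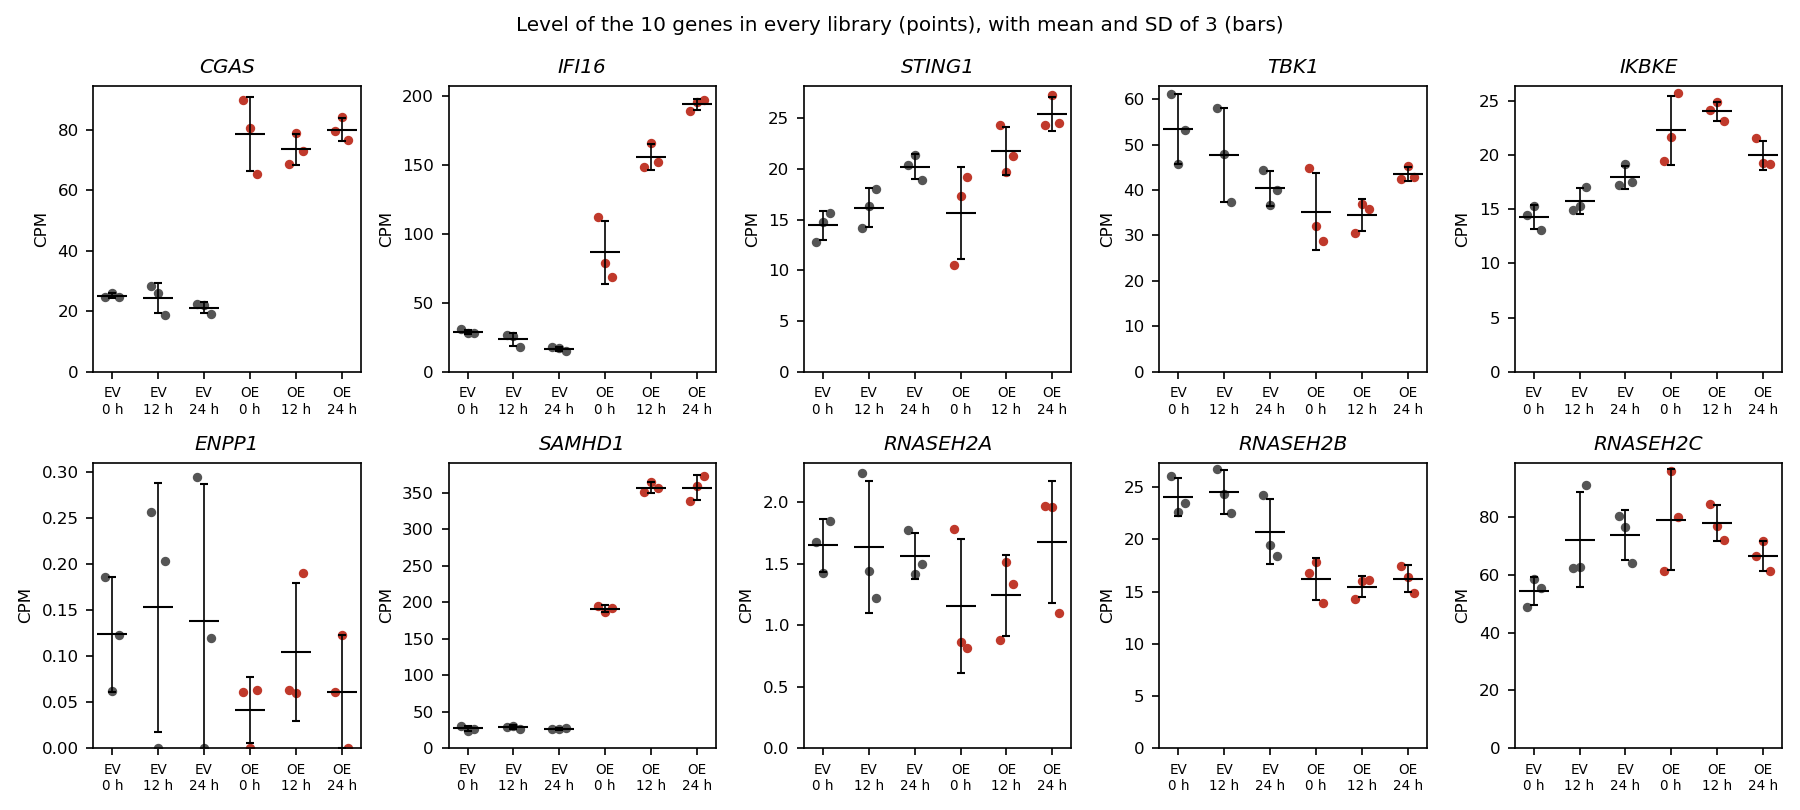
Level of the 10 genes in CPM (vertical axis, from 0, a scale of its own in each panel) in HCC1937-EV (grey) and HCC1937-OE-BRCA1 (red) libraries at 0, 12 and 24 h of olaparib, with each library as a point and the mean and SD of 3 libraries as bars. SAMHD1 lies between 186 and 195 CPM in untreated OE libraries and between 339 and 373 CPM in the 24 h OE libraries, with no overlap, while ENPP1 stays under 0.3 CPM throughout.

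The question of the treatment comparisons was which members olaparib changed in each line. In OE cells SAMHD1 and IFI16 rose at both times and STING1 rose at 24 h, while CGAS, TBK1, IKBKE and the RNase H2 subunits did not pass the test. Of the 9 members tested (ENPP1 was too low), 2 were called at 12 h, where 2.31% of all 18335 genes tested were called, and 3 at 24 h, where 8.26% were called, and every called member was higher. The median log2 fold change of the 9 was 0.10 at 12 h and 0.30 at 24 h, beside 0.00372 and 0.0243 over all genes. The 12 h and 24 h comparisons share the untreated libraries and so are not independent. Between 12 h and 24 h in OE cells no member was called (1.65% of all genes were), although 2 members had an unadjusted p below 0.05, the DESeq2 Wald test called none and the fit to those conditions alone called 2, IFI16 and TBK1.

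SAMHD1, the deoxynucleotide hydrolase, was at 195, 186 and 193 CPM in untreated OE libraries, at 351, 365 and 356 CPM at 12 h and at 339, 359 and 373 CPM at 24 h. All treated libraries lay above all untreated libraries, and between 12 h and 24 h the interval of the log2 change was -0.19 to 0.19. The log2 fold change was 0.90 ± 0.09 (SE) at both times, a fold of 1.87, with adjusted p = 3.21e-06 at 12 h and 2.44e-06 at 24 h in the quasi-likelihood test of edgeR, adjusted by Benjamini-Hochberg.

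IFI16, the PYHIN sensor, was at 112, 79.3 and 68.8 CPM in untreated OE libraries, at 149, 166 and 153 CPM at 12 h and at 190, 196 and 198 CPM at 24 h. The groups did not overlap, and the untreated libraries were spread more widely than the treated ones. IFI16 was 1.79-fold higher at 12 h (log2 fold change 0.84 ± 0.14, adjusted p = 0.00139) and 2.24-fold higher at 24 h (1.16 ± 0.15, adjusted p = 2.62e-05). Untreated OE replicate 1 was the library that stood apart from its group, and without it the log2 fold changes were 1.07 and 1.39.

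STING1, the adaptor, was at 10.5, 17.4 and 19.2 CPM in untreated OE libraries, at 24.4, 19.7 and 21.3 CPM at 12 h and at 24.3, 27.4 and 24.6 CPM at 24 h. Treated and untreated libraries did not overlap. Untreated replicate 1 had the lowest STING1 value of its group, whereas it had the highest IFI16 value. The 24 h change was 1.62-fold (log2 0.70 ± 0.17, adjusted p = 0.0122), and the 12 h change of 0.47 did not pass (adjusted p = 0.192), although with an offset for GC and length it was 0.41 and did (adjusted p = 0.0348). The 24 h log2 fold change was 0.47 (adjusted p = 0.0216) without untreated replicate 1, and the call was lost without OE 24 h replicate 2 (adjusted p = 0.0592) and when the compared conditions were fitted alone (adjusted p = 0.0639).

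The remaining members gave no call in OE cells. The sensor CGAS, at 78.6 ± 12.3 CPM untreated and 80.2 ± 3.74 CPM at 24 h, had a log2 fold change of 0.03 with a 95% interval of -0.24 to 0.30. TBK1 was at 44.9, 32.1 and 28.7 CPM untreated and 42.4, 45.3 and 42.8 CPM at 24 h (log2 0.30, adjusted p = 0.27), and untreated replicate 1 alone lay inside the treated range. Without that library TBK1 was called, at 0.51 with adjusted p = 0.0265. The related kinase IKBKE changed by -0.16 (interval -0.41 to 0.09), RNASEH2B by less than 0.01 (-0.27 to 0.28) and RNASEH2C by -0.25 (-0.57 to 0.07) at 24 h.

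**Figure D2:**
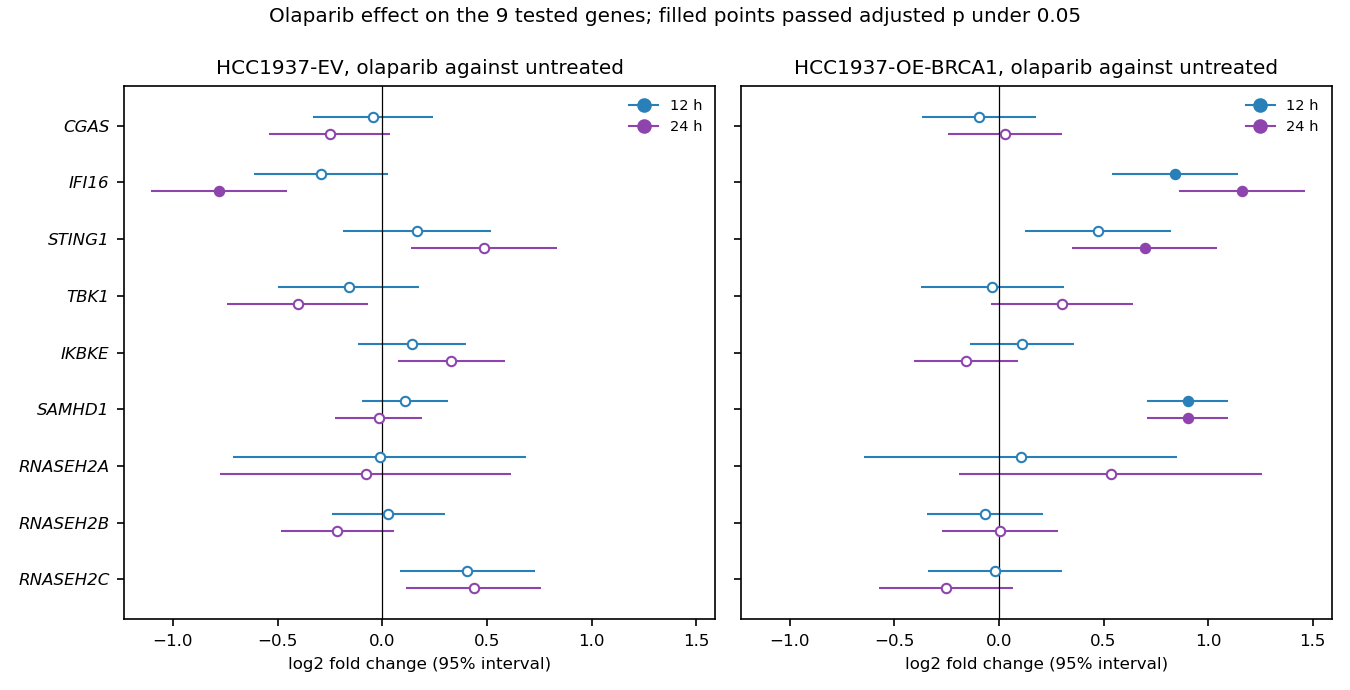
Log2 fold change of 9 genes (horizontal axis, with its 95% interval) after 12 h (blue) and 24 h (purple) of olaparib against untreated cells, in HCC1937-EV (left) and HCC1937-OE-BRCA1 (right), with filled points for adjusted p under 0.05. IFI16 lies at -0.78 in EV and at 1.16 in OE at 24 h, and SAMHD1 lies at 0.90 at both times in OE alone.

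In EV cells IFI16 fell and no other member passed the test. At 12 h none of the 9 members was called by edgeR (0.0436% of all genes, 8 in number, were called), with 1 member at an unadjusted p below 0.05, and the DESeq2 Wald test also called none. At 24 h 1 of 9 was called, beside 13.8% of all genes, and the median log2 fold change of the members was -0.0791 beside 0 over all genes. Between 12 h and 24 h no member was called (0.18% of all genes were), 1 member had an unadjusted p below 0.05, and the DESeq2 Wald test called none.

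IFI16 was at 30.9, 28.0 and 28.0 CPM in untreated EV libraries, at 26.9, 25.8 and 18.2 CPM at 12 h and at 17.7, 17.6 and 15.3 CPM at 24 h. The 24 h libraries all lay below the untreated ones, and IFI16 fell by 0.78 on the log2 scale (SE 0.16, adjusted p = 0.00521). SAMHD1, which rose in OE cells, was at 31.1, 23.5 and 26.9 CPM untreated and 25.9, 26.3 and 28.4 CPM at 24 h in EV cells, which overlap, and the interval of its log2 change was -0.22 to 0.19.

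The other signalling members were near the threshold in EV cells at 24 h. STING1 was at 12.8, 14.8 and 15.6 CPM untreated and 20.4, 21.4 and 18.9 CPM at 24 h, which did not overlap, with a log2 change of 0.49 and adjusted p = 0.0563. RNASEH2C (0.44, adjusted p = 0.0625), IKBKE (0.33, adjusted p = 0.0734) and TBK1 (-0.40, adjusted p = 0.0951) also did not pass. The DESeq2 Wald test called STING1, IKBKE and RNASEH2C in this comparison, 4 members with IFI16, and the fit to the compared conditions alone called 5. CGAS changed by -0.25 (interval -0.54 to 0.04) and RNASEH2B by -0.21 (-0.48 to 0.06).

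The libraries of the lines were next compared at each time. CGAS, IFI16 and SAMHD1 were higher in OE cells at all 3 times and RNASEH2B was lower at all 3. Of the 9 members, 7 were called between the untreated lines (5 higher and 2 lower in OE), 7 at 12 h (5 higher, 2 lower) and 4 at 24 h (3 higher, 1 lower). The shares over all genes were 72.7%, 72.9% and 73.9%, so the members' counts lie near or below the background. The difference in cell markers described above applies to each of these values.

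SAMHD1 was 7.04-fold higher in untreated OE than in untreated EV cells (191 ± 4.61 against 27.2 ± 3.82 CPM), 12.2-fold higher at 12 h and 13.3-fold higher at 24 h (log2 difference 3.73 ± 0.10, adjusted p = 1.2e-17). IFI16 was 2.997-fold higher untreated (86.9 ± 22.8 against 28.98 ± 1.66 CPM), 6.59-fold at 12 h and 11.5-fold at 24 h (3.52 ± 0.16, adjusted p = 3.73e-14). CGAS was at 89.8, 80.7 and 65.4 CPM in untreated OE and 24.7, 26.1 and 24.7 CPM in untreated EV libraries, 3.12-fold higher (adjusted p = 7.02e-10), and it stayed 3.01-fold and 3.79-fold higher at 12 h and 24 h. These 3 genes were apart in every library of every time.

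The kinases differed in opposite directions. IKBKE was higher in untreated OE cells (22.3 ± 3.19 against 14.3 ± 1.14 CPM, log2 0.64, adjusted p = 7.86e-05) and at 12 h (0.61, adjusted p = 0.000133), but at 24 h the difference was 0.16 and did not pass, while with an offset for GC and length it was 0.36 and passed (adjusted p = 0.00151). TBK1 was lower in untreated OE cells (35.3 ± 8.52 against 53.4 ± 7.69 CPM, log2 -0.60, adjusted p = 0.00247) and at 12 h (-0.47, adjusted p = 0.0138), and at 24 h it differed by 0.11 with an interval of -0.23 to 0.45. STING1 differed at 12 h (0.43, adjusted p = 0.0266) and did not pass untreated (0.12) or at 24 h (0.33). At 24 h it passed in 4 of 9 alternative settings, with the GC and length offset at 0.50 (adjusted p = 0.000447). Without untreated OE replicate 1 the untreated difference of STING1 was 0.34 and passed with adjusted p = 0.0318, and that of RNASEH2A was -0.96 with adjusted p = 0.028, so that all 9 members were called.

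**Figure D3:**
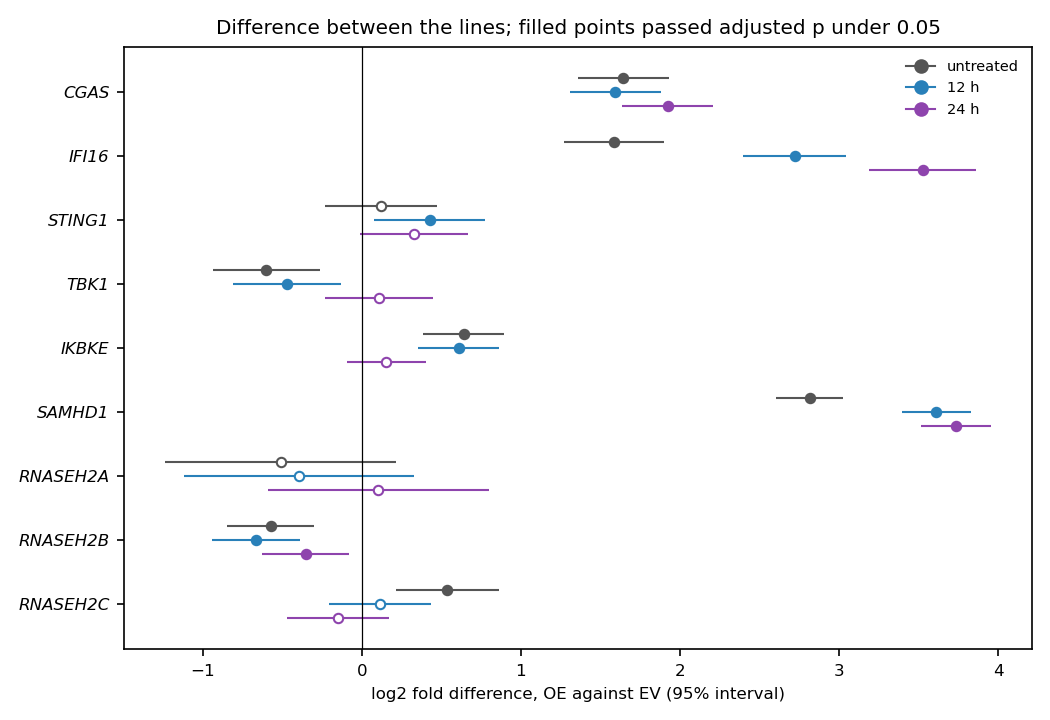
Log2 fold difference of 9 genes between HCC1937-OE-BRCA1 and HCC1937-EV (horizontal axis, with its 95% interval) in untreated cells (grey) and at 12 h (blue) and 24 h (purple) of olaparib, with filled points for adjusted p under 0.05. IFI16 moves from 1.58 to 3.52 and SAMHD1 from 2.82 to 3.73, while RNASEH2B stays between -0.66 and -0.35.

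Whether olaparib acted differently in the lines was tested by the difference of the effects, OE minus EV. At 12 h the effects of IFI16 (1.14 ± 0.21 on the log2 scale, adjusted p = 0.0107) and SAMHD1 (0.79 ± 0.14, adjusted p = 0.00574) differed, 2 of 9 members beside 0.518% of all genes. At 24 h 4 of 9 differed beside 19.4% of all genes: IFI16 (1.94 ± 0.21, adjusted p = 2.2e-05), SAMHD1 (0.92 ± 0.14, adjusted p = 0.000304), TBK1 (0.71 ± 0.23, adjusted p = 0.0353) and RNASEH2C (-0.69 ± 0.22, adjusted p = 0.0316). For STING1 the effects did not differ at 24 h (0.21, interval -0.28 to 0.70), although it had passed in OE cells alone. IKBKE was just outside the threshold (-0.49, adjusted p = 0.051). The IFI16 and SAMHD1 differences passed with any 1 of the 18 libraries left out, although that of IFI16 at 12 h did not pass when the compared conditions were fitted alone (1.14, adjusted p = 0.0712). Those of TBK1 and RNASEH2C lost the call in 9 and 8 of the 18 omissions, with values over all omissions from 0.58 to 0.92 and from -0.84 to -0.53. The libraries in question were untreated EV 1 and 3, untreated OE 2 and 3 and OE 24 h 1 and 3 for both genes, with EV 24 h 2 for both, and EV 24 h 3 and OE 24 h 2 for TBK1 or EV 24 h 1 for RNASEH2C.

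**Figure D4:**
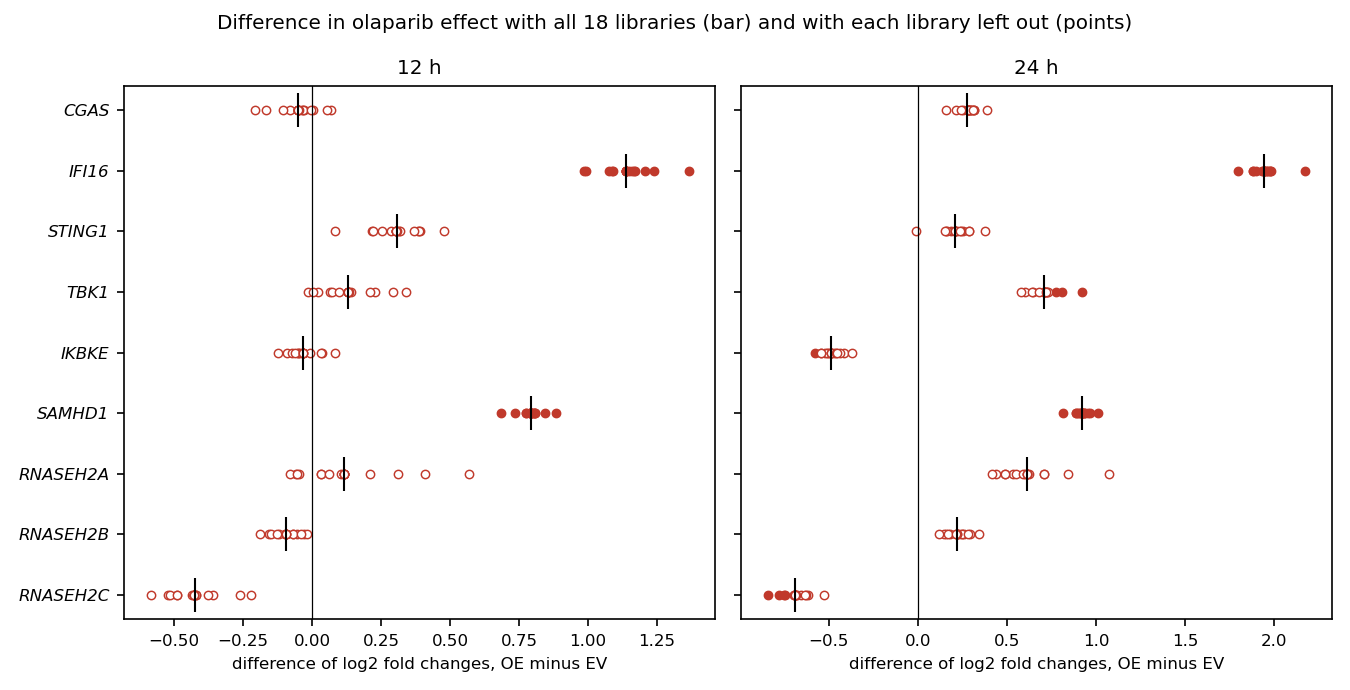
Difference between the lines of the olaparib effect (OE minus EV, log2, horizontal axis) for 9 genes at 12 h (left) and 24 h (right), with all 18 libraries (black bar) and with each library left out in turn (points, filled where adjusted p was under 0.05). The IFI16 and SAMHD1 points are filled throughout, and at 24 h those of TBK1 and RNASEH2C are filled in part.

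The libraries also differed in how reads fell on GC-rich and GC-poor genes, and this moved with time in opposite directions in the lines. A GC index was taken for each library as the median log2 level, centred within each line, of the tested genes with at least 58.1% GC minus that of the genes with at most 41.3% GC. Its median went from -0.21 in untreated EV to 0.18 at 24 h, and from 0.24 in untreated OE to -0.21 at 24 h. The index was -0.41 in untreated OE replicate 1 and 0.24 and 0.37 in the other 2, and it was 0.45 in EV 12 h replicate 3 against -0.33 and -0.0784. TBK1 is GC-poor (39.3% GC, lower than all but 12.1% of tested genes), as are IFI16 (38.6%) and RNASEH2B (39.5%). RNASEH2C (56.4%), STING1 (56.8%) and IKBKE (58.7%) are GC-rich, and SAMHD1 has 44.4%. With an offset for GC and length in the fit, the 24 h differences of effect were 1.60 for IFI16, 0.57 for SAMHD1, 0.40 for TBK1 (adjusted p = 0.0314) and -0.50 for RNASEH2C (adjusted p = 0.0318), that of IKBKE was -0.15, and that of STING1 passed at 0.49 (adjusted p = 0.0422). The fall of IFI16 in EV cells at 24 h was -0.59 with the offset (adjusted p = 0.000201), and its rise in OE cells was 1.02.

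**Figure D5:**
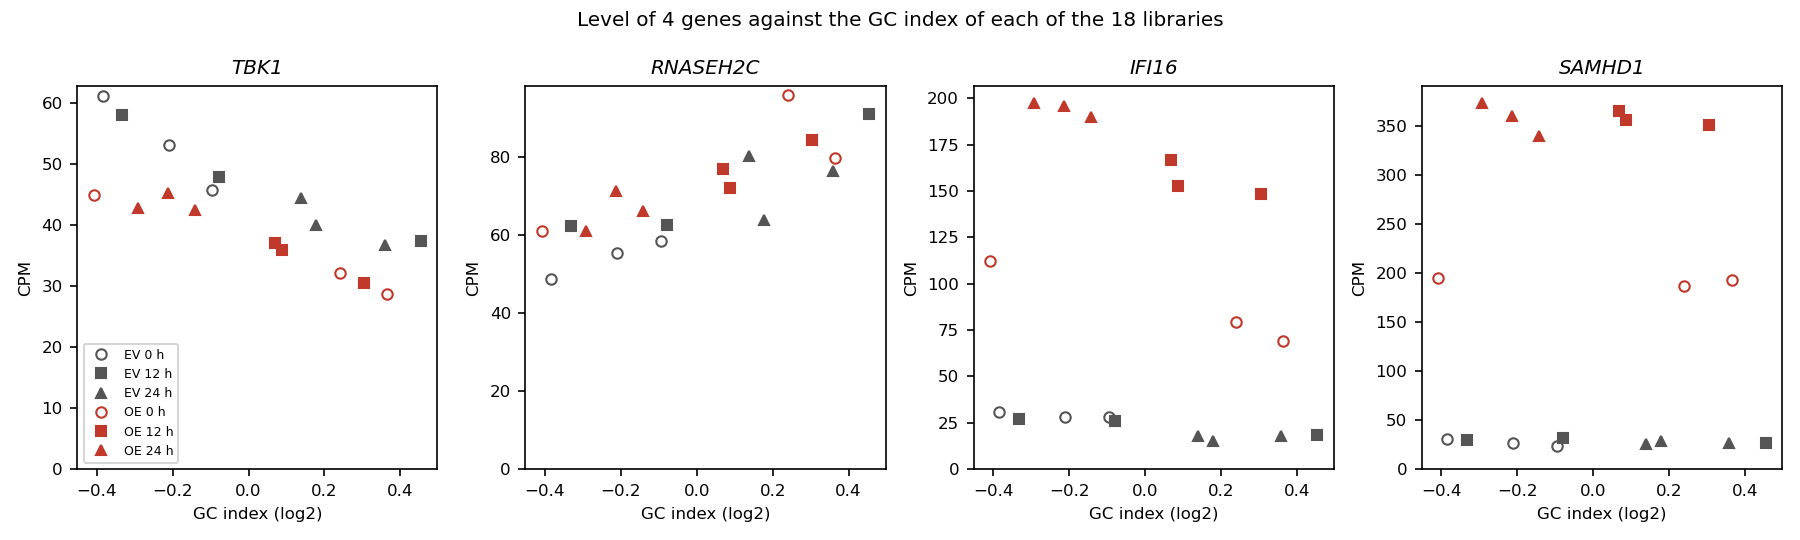
Level in CPM (vertical axis, from 0) of TBK1, RNASEH2C, IFI16 and SAMHD1 against the GC index of each library (horizontal axis, log2), for EV (grey) and OE (red) libraries at 0 h (open circles), 12 h (squares) and 24 h (triangles). TBK1 is lower and RNASEH2C higher in libraries with a high index in both lines, while the SAMHD1 libraries of OE cells split by treatment at all index values.

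The RNase H2 subunits are encoded separately but act as a complex, so their balance was examined. RNASEH2C, a structural subunit, was at 48.9, 58.6 and 55.5 CPM in untreated EV and at 61.1, 95.9 and 79.8 CPM in untreated OE libraries (log2 difference 0.54, adjusted p = 0.00386), and at 24 h the lines did not differ (-0.15, interval -0.47 to 0.17). RNASEH2B, the subunit that holds the complex to the replication clamp PCNA, was at 26.1, 22.6 and 23.5 CPM in untreated EV and 16.8, 17.8 and 13.96 CPM in untreated OE libraries, with no overlap (-0.57 ± 0.13, adjusted p = 0.000588). With the GC and length offset that RNASEH2B difference was -0.25 and did not pass (adjusted p = 0.154).

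The log2 ratio of RNASEH2B to RNASEH2C per length (exon union) was -3.54 ± 0.242 in untreated EV, -4.20 ± 0.129 in 24 h EV, -4.63 ± 0.353 in untreated OE and -4.39 ± 0.0968 in 24 h OE libraries (SD, n = 3). With the longest transcript it was -2.31 in untreated EV and -3.41 in untreated OE libraries. The level of the ratio thus depends on the length used. Its differences between conditions cannot, since a change of length shifts the log2 ratio by the same amount in every library. Untreated OE and untreated EV libraries did not overlap, a difference of -1.09, and neither did 24 h EV and untreated EV libraries, a difference of -0.66. Both gave p = 0.1 by the two-sided exact permutation test, the smallest p that 3 against 3 libraries allow, and 0.525 after Benjamini-Hochberg adjustment over 21 comparisons of 3 ratios. In OE cells the ratio at 24 h differed from untreated by 0.24 (exact permutation p = 0.4). The ratio was -3.27, -3.74 and -3.61 in untreated EV replicates 1, 2 and 3, with GC indices of -0.38, -0.0954 and -0.21. It was -4.09, -4.34 and -4.16 in 24 h EV replicates 1, 2 and 3, with GC indices of 0.14, 0.36 and 0.18. RNASEH2B has 39.5% GC and RNASEH2C 56.4%, and what part the GC index has in this ratio was not tested.

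RNASEH2A, the catalytic subunit, was measured poorly, at 0.818 to 2.24 CPM over the 18 libraries. At 24 h in OE cells it was at 1.96, 1.96 and 1.10 CPM against 1.78, 0.861 and 0.818 CPM untreated, which overlap, and the interval of its log2 change was -0.19 to 1.26. In GENCODE 29 RNASEH2A lies at chr19:12806556-12815201 (GRCh38) and 1123 of its 3645 exonic bases, 30.8%, are also exons of THSD8 on the same strand, which touch 8 of the 8 exons of its isoform RNASEH2A-201 and cover 6 of them entirely. How the counting treated reads on shared exons is not given in the sources used here and the effect of the overlap on the level was not tested, so the level of RNASEH2A is uncertain. RNASEH2C shares 28.2% of its exonic bases with KAT5, TBK1 14.7% and SAMHD1 10.3% with genes on the opposite strand, and the strand setting of the counting is not given either.

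ENPP1, which breaks down cGAMP outside the cell, had 30 counts in all 18 libraries together, 0 to 5 per library and none in 4 of them. A count of 0 allows up to 0.177 to 0.203 CPM in a library (3 counts, counting error only), and the highest level was 0.295 CPM. A change in ENPP1 was not detectable at this depth, and it was left out of the tests by the filter on low counts.

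In the wider DNA sensing and STING pathway genes were called in both directions after olaparib. Of 45 tested genes of the pathway other than the members, 3 were higher and 1 lower in OE cells at 12 h (beside 2.31% of all genes called), and 3 were higher and 4 lower at 24 h (beside 8.26%), and their median log2 fold change at 24 h was 0.02, as over all genes. USP18, an interferon-induced protease that removes ISG15 from proteins, rose from 87.0, 80.4 and 86.0 CPM to 194, 178 and 159 CPM at 12 h (log2 1.07, adjusted p = 7.27e-07), and the Z-nucleic acid sensor ZBP1 rose from 0.307, 0.923 and 1.26 CPM to 4.64, 4.17 and 4.63 CPM (2.43, adjusted p = 0.00107). The chromatin protein HMGB2 fell by 0.51 (adjusted p = 0.00833). In EV cells none of the 45 was called at 12 h, and 3 were higher and 6 lower at 24 h (beside 13.8% of all genes called), among them the helicase DHX9 (-0.33, adjusted p = 0.0149).

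IRF3, the factor that TBK1 phosphorylates, was at 162 ± 40.3 CPM in untreated OE and 75.7 ± 3.16 CPM in untreated EV libraries, a 2.14-fold difference (adjusted p = 4.8e-06). It rose in EV cells at 24 h (log2 0.50, adjusted p = 0.0488) and changed by -0.31 in OE cells (adjusted p = 0.261), and the effects differed (-0.81, adjusted p = 0.0196). Untreated OE replicates 1, 2 and 3 were at 116, 183 and 188 CPM, with GC indices of -0.41, 0.24 and 0.37. EV 12 h replicates 1, 2 and 3 were at 74.7, 90.6 and 127 CPM, with GC indices of -0.33, -0.0784 and 0.45. What part the GC index has in the IRF3 values was not tested.

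Among other nucleases the calls in OE cells were all higher. Of 20 tested nuclease and clearance genes, 1 was higher at 12 h (the RNA editor ADAR, log2 0.50, adjusted p = 0.00282) and 5 were higher at 24 h with none lower, beside 2.31% and 8.26% of all genes called. ADAR went from 835, 691 and 853 CPM to 1085, 1073 and 1206 CPM at 24 h, and the exonuclease genes EXO1 (0.48, adjusted p = 0.00583) and PNPT1 (0.53, adjusted p = 0.0119) were also higher. In EV cells 4 were higher and 1 lower at 24 h, beside 13.8% of all genes called, and the smallest adjusted p was that of the lysosomal exonuclease PLD3 (0.65, adjusted p = 0.00414), with RNASEH1, which also cuts RNA-DNA hybrids, lower (-0.49, adjusted p = 0.00823).

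Genes that make or recycle deoxynucleotides, the substrates of SAMHD1, gave no call in OE cells at 12 h and 4 higher and 3 lower of 18 at 24 h, beside 8.26% of all genes called at 24 h. The ribonucleotide reductase subunits RRM1 and RRM2 were higher then (0.56 each, adjusted p = 0.00207 and 0.000225), and so was RRM2B (0.54, adjusted p = 0.019). In EV cells 5 of the 18 were higher at 24 h and none lower, beside 13.8% of all genes called, and the smallest adjusted p was that of the thymidine kinase TK1 (0.76, adjusted p = 0.00718). Of 17 proliferation genes, 3 fell in OE cells at 12 h, CCNB1 (-0.72), AURKA (-0.61) and CCNA2 (-0.44), and 3 were higher and 2 lower at 24 h, while in EV cells 1 was higher and 5 were lower at 24 h. The shares over all genes were 2.31% and 8.26% in OE cells and 13.8% in EV cells at 24 h.

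Interferon-stimulated genes changed in nearly the whole list in OE cells, and which route induced them was not tested. Of 17, 16 were higher at 12 h and 16 at 24 h, beside 2.31% and 8.26% of all genes called, with median log2 fold changes of 1.19 and 1.22 beside 0.00372 and 0.0243 over all genes. IFIT2 went from 42.8, 36.1 and 33.8 CPM to 200, 216 and 206 CPM at 24 h (log2 2.46, adjusted p = 3.79e-11). In EV cells none was called at 12 h and 4 were higher at 24 h (beside 13.8% of all genes called), with IFIT2 at 6.76, 5.62 and 5.11 CPM untreated and 13.2, 13.5 and 12.3 CPM at 24 h (1.16, adjusted p = 6.76e-05). All 17 were higher in untreated OE than in untreated EV libraries, where 72.7% of all genes were called, with MX1 at 651 to 698 CPM against 0.185 to 0.554 CPM. The effects differed between lines for 7 of the 17 at 12 h and 8 at 24 h, all greater in OE, beside 0.518% and 19.4% of all genes.

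The genes most like each member were taken by Pearson's r of log2 CPM centred within each line over the 18 libraries, which share the same samples and the GC index above, as a description. IFI16 was most like NCOA7 (r = 0.95) and PNPT1 (0.94), and SAMHD1 was most like OAS1 (0.96), RSAD2 (0.96) and DUSP6 (0.95). STING1 was most like LGALS3BP (0.95), KLC4 and SHISA5, and CGAS most like FAM3C (0.93), ELMOD2 and PGGT1B. TBK1 was most like MFN1 (0.98), DIS3 and U2SURP, IKBKE most like OPLAH (0.92), DGCR2 and GAA, and RNASEH2C most like G6PC3 (0.99), PLEKHJ1 and BCAP31. RNASEH2B was most like RBIS (0.88), RCN2 and SYNCRIP, and RNASEH2A, with the lowest counts of these, most like GOLPH3L (0.87), USPL1 and TMEM263. Among the members r was 0.77 for IFI16 with SAMHD1, -0.83 for TBK1 with IKBKE and -0.79 for TBK1 with RNASEH2C.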

How the data were processed

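RNA was measured in 18 libraries of 6 conditions, with 3 libraries each. The authors deposited raw read counts per gene, as a joint table and as 18 single tables whose counts equalled its columns. The submitters' processing notes name HISAT2, featureCounts, DESeq2 and GRCh38; versions, annotation and strand setting are not given in the sources used here. Symbols were matched for 34966 of 35044 gene IDs, and positions and exons were read from GENCODE 29 for 33888. The members and gene lists were chosen with earlier results of these data known.

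Counts were tested with edgeR 4.0.16 (TMM, filterByExpr, quasi-likelihood F test, 1 mean per condition, all 18 libraries), with Benjamini-Hochberg adjustment over 18335 genes and a threshold of 0.05. Subunit ratios were tested by exact permutation. The named genes were every member, BRCA1, at most the 3 called genes with the smallest adjusted p per list and comparison, and the 3 genes most like each member, of which some results are not reported here. IRF3, marker genes and THSD8 were named outside that rule after their values were seen. Levels for likeness were log2(CPM + 0.5). The alternatives were DESeq2 1.42.0 (size factors, Wald test), other filters, the compared conditions alone, a replicate block, a GC and length offset, a fold limit, other lengths and each library left out. The test was checked on simulated data with 200 changed genes and the same spread for every gene, for OE 24 h against untreated OE. It recovered 43% of 1.5-fold and 93% of 2-fold changes, with 9 false calls among 145. A member without a call may therefore still have changed by about 1.5-fold. No pair of libraries of a condition agreed within sampling noise (chi-square per degree of freedom 3.07 to 37.7).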

Additional observations from a re-analysis of the deposited data

Results flagged for a closer look

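The olaparib effect differed between the lines for 6 tests of members, each by the test of the difference of effects (OE minus EV, log2, quasi-likelihood test of edgeR, Benjamini-Hochberg adjusted). For IFI16 the difference was 1.14 after 12 h, with adjusted p = 0.0107. It was 1.94 after 24 h, with adjusted p = 2.2e-05, where all 3 OE libraries at 24 h were above and all 3 EV libraries below their untreated libraries. For SAMHD1 it was 0.79 after 12 h (adjusted p = 0.00574), and after 24 h it was 0.92 (adjusted p = 0.000304). For TBK1 it was 0.71 at 24 h (adjusted p = 0.0353), and for RNASEH2C -0.69 at 24 h (adjusted p = 0.0316). The GC index of the libraries moved in opposite directions with time in the lines. The markers of the libraries labelled HCC1937-EV differ from those labelled HCC1937-OE-BRCA1, and the part of that difference in these results cannot be told apart from that of BRCA1.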

How the results depend on the processing

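Over the 9 tested members and 11 comparisons, 2598 of 2673 recomputed values kept their side of the threshold, 33 lost a call, 42 gained one and none that was called changed sign. The number of members called went from 0 to 2 for OE 24 h against 12 h with the compared conditions alone. For EV 24 h against untreated it went from 1 to 4 with the DESeq2 Wald test, without a filter on low counts and with at least 10 counts in every library, to 5 with the compared conditions alone, and ranged from 1 to 4 with a library left out (4 without untreated OE replicate 1). For the difference of the 12 h effects it went from 2 to 1 with the compared conditions alone, and for that of the 24 h effects it ranged from 2 to 5 with a library left out. The STING1 difference between lines at 12 h lost its call without EV 12 h replicate 1 or 2 or OE 12 h replicate 1, that of TBK1 without EV 12 h or OE 12 h replicate 1, and that of RNASEH2B at 24 h without EV 24 h replicate 1 or OE 24 h replicate 3. Neither STING1 nor TBK1 at 12 h nor RNASEH2B at 24 h passed a log2 fold change of 0.5. The causes were not tested.

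Over the whole table, calls for OE 24 h against untreated OE ranged from 644 to 3329 with a library left out, the highest without untreated OE replicate 1, and those for EV 24 h against untreated EV from 462 to 3679. Calls for EV 12 h against untreated EV ranged from 0 to 818 over the other settings. With the compared conditions alone 3208 genes in place of 303 were called for OE 24 h against 12 h, with the GC and length offset 191 in place of 33 for EV 24 h against 12 h, and without a filter 644 in place of 95 for the difference of the 12 h effects (772 without untreated OE replicate 1). With the GC and length offset 1146 and 3086 genes were called in OE cells at 12 h and 24 h.

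A paired analysis with a replicate block called 2, 3, 0, 0, 1, 0, 7, 7, 4, 2 and 4 members in the 11 comparisons, as without it, and with the GC and length offset as well the calls were 3, 3, 0, 0, 1, 1, 6, 7, 6, 2 and 5. That fit gained STING1 in OE cells at 12 h, IFI16 for EV 24 h against 12 h, STING1 and IKBKE between the lines at 24 h and STING1 in the difference of the 24 h effects, and lost RNASEH2B between the untreated lines, and the GC and length offset without the block made the same changes other than that of IFI16. Same-numbered libraries deviated together with r over 0.1 in 5 of 45 pairs and differently numbered ones in 14 of 90. The highest r was 0.30 for same-numbered and 0.22 for differently numbered pairs. The check thus showed no pairing by number, but it cannot exclude one, since libraries of a condition also differ in GC index.

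The log2 ratio of RNASEH2B to RNASEH2C differed by -1.30 to -0.96 between the untreated lines and by -0.76 to -0.52 between 24 h and untreated EV libraries with a library left out. A further length, chosen after seeing the data, was the unshared exonic bases of each member, with the counts left unchanged. It gave RNASEH2A 2.17 TPM and RNASEH2C 49.4 TPM in untreated EV cells.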
